A study of Mus musculus with 16 samples.

Results

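The genes described here are the 10 that handle calcium in and around the sarcoplasmic reticulum of muscle fibers. They were chosen by symbol (*Ryr1*, *Cacna1s*, *Casq1*, *Casq2*, *Srl*, *Atp2a1*, *Atp2a2*, *Sln*, *Pln* and *Pvalb*), and each matched 1 of the 55471 gene identifiers in the deposited count table. All 10 passed the filter on low counts and were tested together with the other genes, 14331 in all. In a muscle fiber, the voltage sensor of the transverse tubule opens the release channel of the sarcoplasmic reticulum, calcium bound to calsequestrin inside the reticulum flows out, and the fiber contracts. Calcium pumps of the SERCA family then return it, small membrane peptides slow these pumps, and in fast fibers parvalbumin binds calcium in the cytosol on the way. Fast and slow fibers use different copies of the pump, whereas the calsequestrin *Casq1* is present in both and slow fibers and heart also hold *Casq2*.

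The libraries are bulk RNA-seq of skeletal muscle from 16 male mice fed a high-fat diet (HFD, 60% of kcal from lipids) for up to 12 weeks from 12 weeks of age, and each library is 1 mouse. Of these, 10 are labelled heterozygous and are called *Npr1*+/- here, carrying 1 disrupted allele of *Npr1* (B6.129-Npr1tm1Gar/J), which encodes the natriuretic peptide receptor GCA. The other 6 are labelled wildtype and are their *Npr1*+/+ littermates, and both come from a line backcrossed to C57BL/6J for at least 10 generations. The disrupted allele is carried in every tissue and is not specific to muscle, the labels do not name the muscle taken, and the mice were spread over 4 cages. The comparison asks which muscle mRNAs differ with partial loss of GCA under HFD.

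Library totals were 15273472 to 59682677 counts. *Npr1* itself had 13.6 ± 3.87 CPM (counts scaled to library size after TMM normalization; SD, n = 10) in *Npr1*+/- and 12.2 ± 1.05 CPM (SD, n = 6) in *Npr1*+/+ libraries, so the targeted mRNA was not lower in the libraries labelled heterozygous (log2 fold change 0.09, standard error 0.20), and every direction below is between libraries as labelled. Counts over the whole gene may include transcripts of the disrupted allele. *Npr1*+/+ replicate 3 had 20.3 CPM of *A930005H10Rik*, a chromosome 3 transcript chosen after its values were seen, against 8.24 to 8.98 CPM in the other *Npr1*+/+ libraries and 16.2 to 37.7 CPM in *Npr1*+/- libraries. *Casq2* is therefore also given without that library. *Npr1*+/- replicates 5, 6 and 7 stood apart by a long-gene index, the mean log2 CPM of the 1434 longest tested genes (at least 9660 bases) minus that of the other 12897, which was 1.02 to 1.32 there and 0.07 to 0.71 in the other 13 libraries. A single ribosomal RNA gene took 9.10%, 8.80% and 5.21% of the counts in *Npr1*+/- replicates 9, 1 and 8, and 0.05% to 2.36% elsewhere.

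The 250 bases before the RefSeq start of the 2 calsequestrin genes are shown. The pair was chosen after its ratio was seen to differ between the labels, a difference whose limits are given below. Any part of these sequences in that difference was not tested. Capitals mark E-boxes (CANNTG, the letters bound by myogenic factors of the MyoD family) and, in *Casq2*, 1 match of 10 bases to the MEF2 motif, searched on both strands (build GRCm38.p6). The *Casq2* stretch is chr3:102086165-102086414 on the plus strand, and the *Casq1* stretch is chr1:172219896-172220145 on the minus strand.
Casq2: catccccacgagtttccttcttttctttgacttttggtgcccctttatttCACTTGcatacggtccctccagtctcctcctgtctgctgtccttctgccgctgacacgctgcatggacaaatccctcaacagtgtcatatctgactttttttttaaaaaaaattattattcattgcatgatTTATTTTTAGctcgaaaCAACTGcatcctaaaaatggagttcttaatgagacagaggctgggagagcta
Casq1: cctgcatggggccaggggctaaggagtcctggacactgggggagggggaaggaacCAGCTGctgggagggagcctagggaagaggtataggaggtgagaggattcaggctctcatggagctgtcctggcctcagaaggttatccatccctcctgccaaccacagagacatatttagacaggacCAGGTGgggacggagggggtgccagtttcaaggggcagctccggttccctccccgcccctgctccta
Each stretch holds 2 E-boxes, which 66.2% of the 32851 RefSeq promoters of this length hold at least once. The *Casq2* stretch holds the MEF2 match, found in 2.92% of them, and the *Casq1* stretch holds none, and the 2 motifs do not overlap in either. These matches describe the letters and are not evidence of binding. Promoters were matched for 7 of the 10 genes. A *Pvalb* promoter (chr15:78206401-78206650, minus strand) also holds 1 MEF2 match, and the other *Pvalb* promoter holds none. Those of *Atp2a1*, *Pln*, *Ryr1* and *Cacna1s* hold none.

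The levels of the 10 genes, compared as CPM per kb of gene model, placed *Casq1* above *Casq2* and the pump of fast fibers above that of slow fibers and heart. *Pvalb*, the cytosolic calcium buffer of fast fibers, was highest, with a median of 18953 CPM per kb over 16 mice. *Atp2a1*, the SERCA pump of fast fibers, came next with 6101, and *Casq1*, the main calsequestrin of skeletal fibers, with 1422. *Srl*, which encodes the reticulum glycoprotein sarcalumenin, had 330 (range 169 to 442) and *Cacna1s*, the voltage sensor, had 87.2. *Casq2*, the calsequestrin of slow fibers and heart, had 28.0, and *Ryr1*, the release channel, had 17.3. *Atp2a2*, the pump of slow fibers and heart, had 3.28, and the pump inhibitors sarcolipin (*Sln*) and phospholamban (*Pln*) were lowest with 1.33 and 0.54. Neighbours in this order kept it in all 16 mice for 6 of the 9 neighbouring pairs. *Cacna1s* was above *Casq2* and *Atp2a2* above *Sln* in 15 of 16 mice, and *Casq2* and *Ryr1* exchanged places, with *Casq2* higher in 10 of 16.

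**Figure D1:**
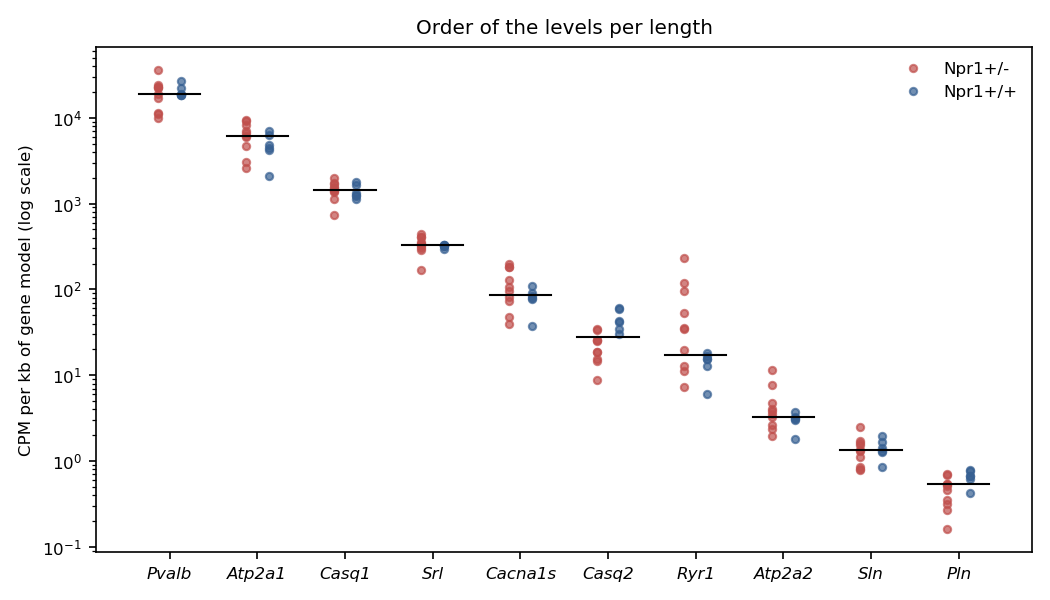
Levels of the 10 genes in CPM per kb of gene model on a log axis, ordered by the median over 16 mice (black line), with 1 point for each *Npr1*+/- (red) and *Npr1*+/+ (blue) mouse. *Pvalb* leads at a median of 18953 and *Pln* closes the order at 0.54.

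Markers of slow fibers were uneven in the same libraries. *Myh7*, the slow myosin, had 0 to 28.6 CPM with a median of 0.40, and the other 6 had medians from 3.78 CPM (*Tnnc1*) to 110 CPM (the myosin light chain *Myl3*) over the 16 mice, while the fast myosin *Myh4* had 4960 to 58769 CPM. Of the 8 cardiac markers, *Nppb* and *Mybpc3* had 0 and 2 counts over all 16 mice, and *Nppa*, *Tnni3* and the cardiac release channel *Ryr2* had at most 0.34, 0.70 and 0.46 CPM. The cardiac myosin *Myh6* had 0.12 to 7.10 CPM (median 0.74), *Tnnt2* 1.39 to 3.64 CPM (median 2.49) and *Actc1* 42.9 to 141 CPM (median 69.5). In tissue of mixed cells, fewer cells of a type and less RNA per cell cannot be told apart.

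*Casq2* was the gene of the 10 with the largest difference between the labels relative to its error. Its CPM ranged from 23.9 to 95.7 with a median of 60.5 in *Npr1*+/- mice and from 82.5 to 165 with a median of 115 in *Npr1*+/+ mice. The groups overlapped only through *Npr1*+/- replicates 1 and 8 and *Npr1*+/+ replicates 4 and 6, so that 8 of 10 *Npr1*+/- mice lay below every *Npr1*+/+ mouse. With cage and body weight in the model, the log2 fold change was -0.95 (standard error 0.25, 95% confidence interval -1.48 to -0.43), a fold of 0.518. The gene spans chromosome 3 from 102086415 to 102146514 (GRCm38) and was counted over its exons (2736 bases). It was lower in *Npr1*+/- mice in all 4 cages, by 0.45 to 1.21 on the log2 scale. The difference did not pass the test across all genes (edgeR quasi-likelihood, unadjusted p = 0.00144, and 0.999994 after Benjamini-Hochberg adjustment), and 0 of the 14331 genes did (151 had an unadjusted p-value under 0.05). DESeq2 called 6 genes and limma-voom 0, none of them among the 10.

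The log2 fold change of *Casq2* was -0.93 without *Npr1*+/+ replicate 3, and -0.98 without the 3 libraries of highest long-gene index. It ranged from -1.07 to -0.80 when each mouse was left out in turn, with unadjusted p-values of 0.000237 to 0.0416 in edgeR, the largest of them without *Npr1*+/+ replicate 4. *Casq2* lies 11.6 Mb from *Npr1* on the same chromosome, and the *Npr1* allele and other alleles inherited with it cannot be told apart in this design. Of 316 other tested genes within 15 Mb of *Casq2*, 13 (4.11%) reached an unadjusted p under 0.05, 4 of them with higher and 9 with lower levels in *Npr1*+/- mice, where the share over all genes tested was 1.05%. A single gene among them, *A930005H10Rik*, had a smaller p-value than *Casq2*. Both shares lie below the nominal rate of a threshold of 0.05, and the difference between them was not tested. The 3 tested genes whose log2 CPM was most like that of *Casq2* over the 16 mice (a description, with no test) were *St7l* (Pearson r 0.82), *Capza1* (0.81) and *Gng10* (0.80), and of these *St7l* and *Capza1* also lie on chromosome 3. *Capza1*, an actin capping protein gene, had 3.46 to 9.26 CPM in *Npr1*+/- and 6.76 to 12.4 CPM in *Npr1*+/+ mice.

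**Figure D2:**
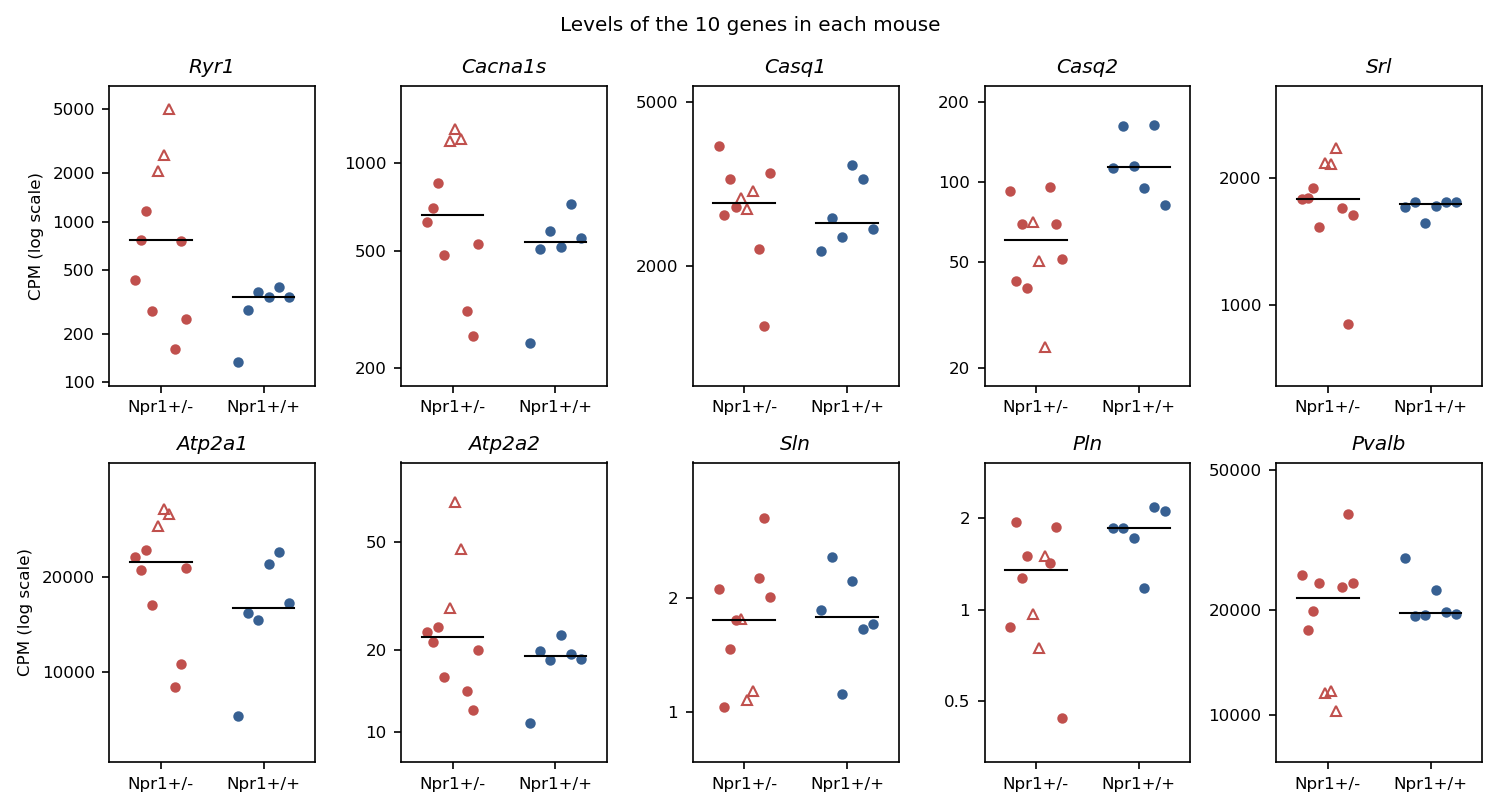
CPM of each gene (log axis) in each mouse by genotype label, with the median of the group as a black line; triangles are the 3 libraries of highest long-gene index (*Npr1*+/- replicates 5, 6 and 7). *Casq2* is the gene with the least overlap, 23.9 to 95.7 against 82.5 to 165 CPM, and *Ryr1* spreads from 160 to 5003 CPM in *Npr1*+/- mice.

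*Casq1*, on chromosome 1 from 172209894 to 172219868, did not share this pattern. It had 1435 to 3911 CPM with a median of 2855 in *Npr1*+/- mice and 2177 to 3517 CPM with a median of 2542 in *Npr1*+/+ mice, and 8 of the 10 *Npr1*+/- mice lay within the *Npr1*+/+ range. Its log2 fold change was -0.21 (standard error 0.19, 95% confidence interval -0.62 to 0.20), lower in 2 cages and higher in 2. Per length, the counts of *Casq2* were 0.56% to 3.33% of those of both calsequestrins in *Npr1*+/- mice and 1.89% to 4.27% in *Npr1*+/+ mice. The log2 ratio of *Casq2* to *Casq1* per length, which needs no scaling between libraries, was -6.10 ± 0.77 (SD, n = 10) in *Npr1*+/- and -4.99 ± 0.45 (SD, n = 6) in *Npr1*+/+ mice. The difference of -1.11, a fold of 0.465, passed a two-sided exact permutation test over the 8008 splits of the mice (p = 0.00787, and 0.0236 adjusted over the 3 ratios computed). *Casq2* was named in earlier results of these data, so this is a description of the same pattern on another scale and not independent evidence.

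Within cages the ratio was lower in *Npr1*+/- mice in all 4, by 1.49, 1.02, 0.79 and 0.66 on the log2 scale, and permuting the labels only within cages (360 splits) gave an exact p of 0.0139. The adjusted exact p was 0.0529 without *Npr1*+/+ replicate 1, 0.0609 without replicate 2, 0.0519 without replicate 5 and 0.0804 without the 3 libraries of highest long-gene index, so the call was lost when any of these was left out. The difference itself stayed between -1.25 and -0.92 in all of these repeats.

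**Figure D3:**
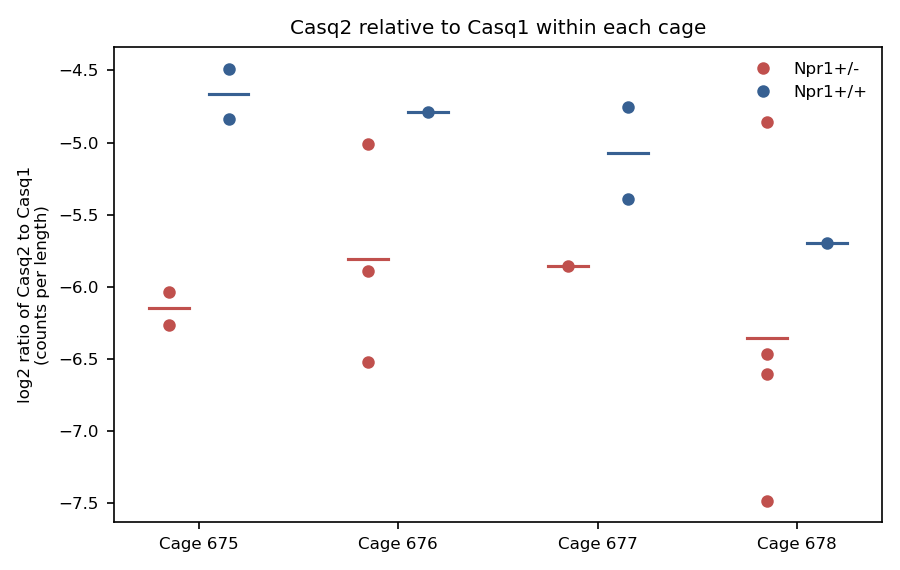
The log2 ratio of *Casq2* to *Casq1* (counts per length) for each mouse in each of the 4 cages, with the mean of each label as a line, *Npr1*+/- in red and *Npr1*+/+ in blue. The *Npr1*+/- mean is the lower one in every cage, and cages 676 and 678 each hold 1 *Npr1*+/+ mouse and 677 holds 1 *Npr1*+/- mouse.

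For the release machinery, the size of the difference in *Ryr1* between the labels depended on the terms of the model, and neither *Ryr1* nor *Cacna1s* passed the adjusted threshold. *Ryr1*, on chromosome 7 from 29003344 to 29125015, had 160 to 5003 CPM with a median of 763 in *Npr1*+/- and 132 to 392 CPM with a median of 336 in *Npr1*+/+ mice. The 7 highest mice were all *Npr1*+/-, but the log2 fold change of 0.63 had a standard error of 0.57 and a 95% confidence interval of -0.57 to 1.83. Without body weight in the model the log2 fold change of *Ryr1* was 1.79 (standard error 0.64, unadjusted p = 0.0133 in edgeR, adjusted p = 0.869), and with the label as the only term it was 2.14 (standard error 0.64, unadjusted p = 0.00358, adjusted p = 0.999). With cage and body weight it was 0.11 without *Npr1*+/+ replicate 4 and 1.496 without *Npr1*+/+ replicate 5. Its log2 CPM varied with an SD of 1.48 over the 16 mice, larger than that of 99.8% of the tested genes (median 0.38). *Cacna1s*, on chromosome 1 from 136052750 to 136119529, had 257 to 1311 CPM (median 668) in *Npr1*+/- and 243 to 726 CPM (median 537) in *Npr1*+/+ mice, and its log2 fold change was 0.11 (standard error 0.33), 0.56 (standard error 0.34) without body weight in the model and 0.52 (standard error 0.32) with the label alone. *Npr1*+/+ replicate 1 was lowest of all mice for both genes.

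The 3 libraries of highest long-gene index held the highest values of both genes. In *Npr1*+/- replicates 5, 6 and 7, *Ryr1* had 2067 to 5003 CPM and *Cacna1s* 1190 to 1311 CPM, above every one of the other 13 libraries (132 to 1170 and 243 to 854). *Atp2a1*, *Atp2a2* and *Srl* were also higher in each of these 3 libraries than in any of the other 13, and *Pvalb* was lower in each. *Casq2* had 23.9 to 70.7 CPM in these 3 libraries, all *Npr1*+/-, and 40.1 to 165 CPM in the other 13, so its values overlapped. Without the 3 libraries the log2 fold change of *Ryr1* was 0.22, and of *Cacna1s* -0.25. *Ryr1* has the longest gene model of the 10 (21838 bases), and it was most like other long genes, *Plec* (Pearson r 0.996 over 16 mice, 18113 bases), *Celsr2* (0.99) and *Spen* (0.99). *Pvalb*, with the shortest (1041 bases), was most like *Psmb1*, *Psma4* and *Park7* (each 0.99). Of the other genes, those most alike were *Brd1*, *Iqsec1* and *Pard3* (*Cacna1s*, each 0.98), *Psmc5*, *Cops8* and *Pctp* (*Casq1*, 0.95 to 0.96), *Stt3b*, *Dnajc11* and *Tsc1* (*Srl*, 0.96 to 0.97), *Zhx2*, *Mapk14* and *Steap3* (*Atp2a1*, 0.97 to 0.98), *App*, *Khsrp* and *Pomt1* (*Atp2a2*, 0.96 to 0.97) and *Med29*, *Gm3375* and *Gm11808* (*Sln*, 0.88 to 0.89). Within the other 13 libraries, none of the 10 genes had a Pearson r with the index that passed adjustment over the 10 relations. *Pln* and *Pvalb* came nearest. *Pln* had r 0.64 (permutation p = 0.0147, adjusted 0.0757), rho 0.45 (permutation p = 0.124, adjusted 0.329) and r 0.55 without the 2 mice farthest from the median of the index. *Pvalb* had r -0.64 (permutation p = 0.0151, adjusted 0.0757) and Spearman's rho -0.76 (permutation p = 0.00371, adjusted 0.0371) and r -0.76 without those 2 mice. Whether RNA quality or library preparation plays a part was not tested.

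**Figure D4:**
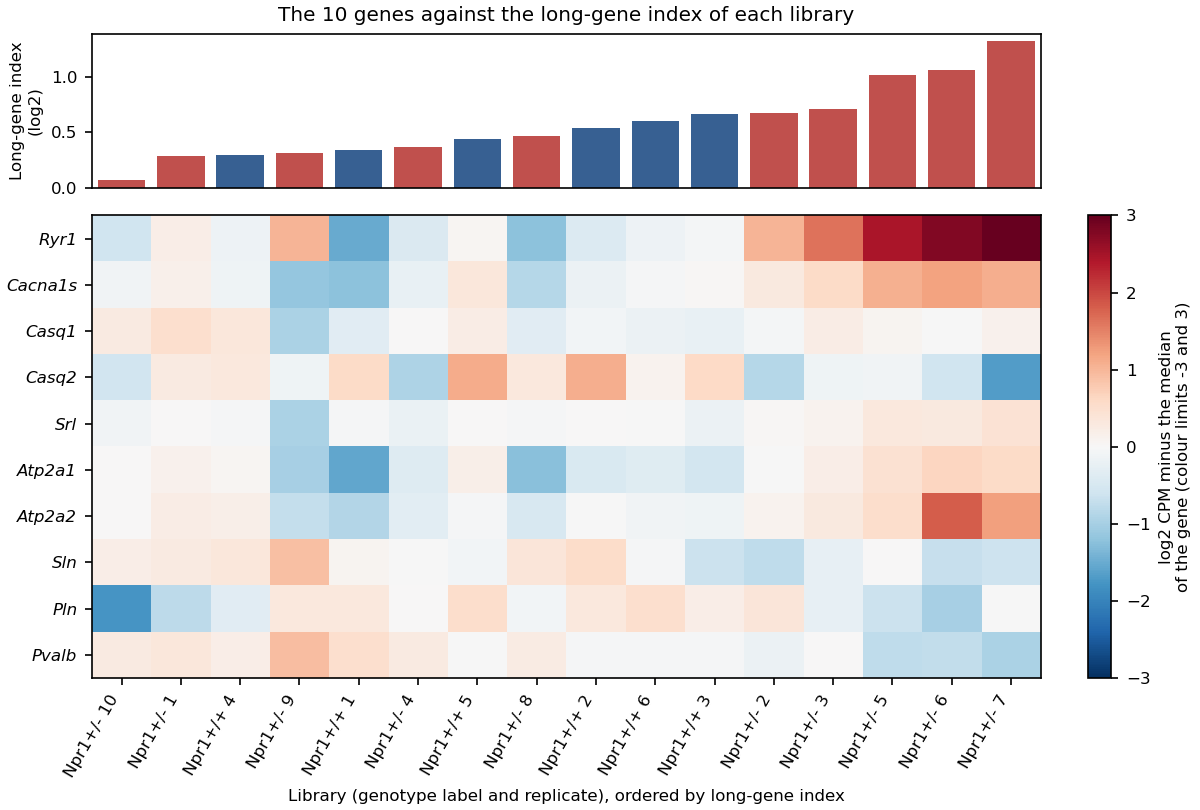
Top, the long-gene index of each library (log2, *Npr1*+/- red, *Npr1*+/+ blue); bottom, log2 CPM of each gene minus its median over the 16 mice, with colours limited at -3 and 3, for the same libraries. In the 3 libraries of highest index (1.02 to 1.32) *Ryr1*, *Cacna1s*, *Atp2a1*, *Atp2a2* and *Srl* are high and *Pvalb* is low, whereas *Casq2* overlaps, at 23.9 to 70.7 CPM against 40.1 to 165 CPM in the other 13.

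Neither SERCA pump had an unadjusted p-value under 0.05 for the label with cage and body weight in the model. *Atp2a1*, on chromosome 7 from 126445858 to 126463108, had 8962 to 33003 CPM (median 22321) in *Npr1*+/- and 7226 to 24058 CPM (median 15977) in *Npr1*+/+ mice, and its log2 fold change was -0.02 (standard error 0.29, 95% confidence interval -0.63 to 0.59). *Atp2a2*, on chromosome 5 from 122453513 to 122502174, had 12.1 to 70.0 CPM (median 22.4) in *Npr1*+/- and 10.8 to 22.7 CPM (median 19.0) in *Npr1*+/+ mice, and its log2 fold change was 0.20 (standard error 0.31). Without body weight in the model the log2 fold changes were 0.39 (standard error 0.31) for *Atp2a1* and 0.60 (standard error 0.32) for *Atp2a2*. The highest *Atp2a2* value belonged to *Npr1*+/- replicate 6, which also had the highest mean log2 CPM of the slow sarcomere genes. The log2 ratio of *Atp2a2* to *Atp2a1* per length was -10.53 ± 0.40 (SD, n = 10) in *Npr1*+/- and -10.57 ± 0.31 (SD, n = 6) in *Npr1*+/+ mice (difference 0.04, two-sided exact permutation p = 0.824, also 0.824 adjusted over the 3 ratios).

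The pump inhibitors were measured close to the limit of these libraries. *Sln*, on chromosome 9 from 53850164 to 53854560, had 17 to 107 counts per library, 1.03 to 3.27 CPM in *Npr1*+/- and 1.11 to 2.57 CPM in *Npr1*+/+ mice, and a log2 fold change of -0.09 (standard error 0.33). *Pln*, on chromosome 10 from 53337667 to 53345593, had 7 to 59 counts per library, where a count of 3 corresponds to 0.05 to 0.20 CPM. Its CPM was 0.44 to 1.94 (median 1.35) in *Npr1*+/- and 1.18 to 2.18 (median 1.86) in *Npr1*+/+ mice, and 4 of 10 *Npr1*+/- mice were below every *Npr1*+/+ mouse. The log2 fold change of *Pln* was -0.64 (standard error 0.33, 95% confidence interval -1.34 to 0.07, unadjusted p = 0.0750 in edgeR), and it was -0.71 without body weight in the model (unadjusted p = 0.0217, adjusted p = 0.869), -0.54 with the label alone (unadjusted p = 0.0425, adjusted p = 0.999), -1.18 without *Npr1*+/+ replicate 4 and -0.33 without *Npr1*+/+ replicate 5. *Pln* lies within the span of *Cep85l* on the opposite strand, whose total of 27412 counts was far above the 549 of *Pln*, and since the strand setting of the counting is not given in the sources used here, reads of the 2 genes may not be told apart. The log2 ratio of *Pln* to *Sln* per length was -1.61 ± 0.86 (SD, n = 10) and -1.07 ± 0.58 (SD, n = 6), a difference of -0.53 (two-sided exact permutation p = 0.204, adjusted 0.306 over the 3 ratios).

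*Pvalb* and *Srl* did not differ between the labels beyond the spread between mice. *Pvalb*, on chromosome 15 from 78191114 to 78206400, had 10289 to 37445 CPM (median 21529) in *Npr1*+/- and 19208 to 28070 CPM (median 19521) in *Npr1*+/+ mice, and its log2 fold change was -0.01 (standard error 0.28). Its 3 lowest values were *Npr1*+/- replicates 5, 6 and 7 and its highest was replicate 9, a library with 9.10% ribosomal RNA counts. *Srl*, on chromosome 16 from 4480216 to 4541816, varied least of the 10 (SD 0.30 on the log2 scale) and had 902 to 2355 CPM (median 1783) in *Npr1*+/- and 1561 to 1757 CPM (median 1732) in *Npr1*+/+ mice. Its log2 fold change was -0.05 (standard error 0.18), and *Npr1*+/- replicate 9 was the lowest mouse for both *Srl* and *Casq1*.

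Counted over the 10 genes, 0 passed the adjusted threshold for the genotype label, as 0% of all genes tested did, and 1 (*Casq2*) had an unadjusted p-value under 0.05, where the share over all genes was 1.05%, and 0.509% in the lower direction. The median log2 fold change was -0.04 over the 10 genes and -0.01 over all 14331. Other genes of the pathway, from lists set together with the 10, gave no call either. Among 26 tested of 28 genes of the triad and release complex, 0 had an unadjusted p-value under 0.05 (8 higher and 18 lower in sign, median -0.04). The smallest p-value belonged to *Itpr2*, an inositol trisphosphate receptor, at a log2 fold change of 0.54 (standard error 0.39), and the highest level per length to *Tmem38a*, the TRIC-A potassium channel of the reticulum, at a log2 fold change of 0.00 (standard error 0.20). Among 20 tested of 22 genes of calcium uptake, entry and extrusion, 0 had one as well (median -0.02), and *Smdt1*, a subunit of the mitochondrial calcium uniporter, had the highest level per length, at a log2 fold change of -0.02 (standard error 0.24). Among 19 calcium signalling genes, 0 had one (median -0.03), led by *Nfatc1* with 0.24 (standard error 0.30), and *Myoz1*, a calcineurin-binding protein of the Z-disc, had the highest level with -0.12 (standard error 0.18).

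Markers of fiber type and of other cell types were read beside these values. None of 7 slow and 9 fast sarcomere genes, and none of 3 cardiac, 5 smooth muscle, 4 regenerating, 5 adipocyte and 5 endothelial genes tested, had an unadjusted p-value under 0.05 for the genotype label. The summed slow list was 133 to 277 CPM in *Npr1*+/- and 136 to 244 CPM in *Npr1*+/+ mice, and the summed cardiac list, nearly all of it *Actc1*, was 49.1 to 126 and 61.7 to 145 CPM. The summed adipocyte list was 278 to 1101 and 455 to 801 CPM, and the endothelial list 147 to 446 and 175 to 225 CPM. Of the 3 cardiac genes tested, 2 were lower in sign, as *Casq2* was: *Tnnt2*, a cardiac troponin, had a log2 fold change of -0.47 (standard error 0.23) and *Actc1*, a cardiac actin that skeletal muscle also expresses, had one of -0.51 (standard error 0.27), while that of *Myh6* was 0.57 (standard error 0.68). Of the 7 slow sarcomere genes, 5 were lower and 2 higher in sign (median -0.17). The part of these genes in the *Casq2* difference was not tested. Of the other lists, the smallest p-values belonged to *Tnnc1* (slow, -0.60), *Tnnc2* (fast, -0.31), *Myh11* (smooth muscle, 0.26), *Myh8* (regenerating, 0.74), *Adipoq* (adipocyte, -0.29) and *Cdh5* (endothelial, 0.26), given as log2 fold changes. The summed fast list was 61037 to 119126 CPM in *Npr1*+/- and 63080 to 85794 CPM in *Npr1*+/+ mice, the smooth muscle list 152 to 329 and 188 to 271 CPM, and the regenerating list 11.2 to 34.8 and 13.8 to 22.7 CPM.

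The slow sarcomere index was the mean log2 CPM of the 7 slow sarcomere genes. None of the 10 genes had an r or rho with it over the 16 mice that passed adjustment over the 10 relations. Every gene weighs alike in the index, also *Myh7* with a median of 0.40 CPM (0 to 28.6). Whether the index follows slow fiber content was not tested. The relation with the smallest p-value was that of *Atp2a2*, with r 0.48 (permutation p = 0.0599, adjusted 0.599 over 10 relations) and rho 0.21 (permutation p = 0.422, adjusted 0.922), and it fell to r -0.02 without *Npr1*+/- replicate 6 and *Npr1*+/+ replicate 4, the 2 mice farthest from the median. *Casq2* had r -0.16 (permutation p = 0.548, adjusted 0.783) and rho -0.22 (permutation p = 0.419, adjusted 0.922), and r -0.23 without those 2 mice. Without the same 2 mice, r went from -0.03 to -0.50 for *Casq1* and from 0.04 to -0.35 for *Srl*, and stayed at 0.34 for *Ryr1*. With a mouse left out, the r of *Atp2a2* was 0.073 to 0.58, and its lowest adjusted permutation p was 0.244.

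Among the 13 libraries outside the 3 of highest long-gene index, 45 pairs of the 10 genes were compared, and 8 had a Pearson r that passed adjustment over the 45, of which 7 were positive. This count was not set against pairs of all genes, and other genes reached r as high in these 13 libraries (0.97 for *Pvalb* with *Psmb1* and 0.98 for *Atp2a1* with *Steap3*), so nothing particular to the 10 genes is read from it. *Atp2a1* and *Atp2a2* had r 0.92 (permutation p = 3.0e-05, adjusted 0.00112), rho 0.87 (permutation p = 0.00033, adjusted 0.00525) and r 0.87 without the 2 farthest mice. *Atp2a1* and *Cacna1s* had r 0.91 (permutation p = 0.00011, adjusted 0.00165), rho 0.83 (permutation p = 0.00088, adjusted 0.0099) and r 0.83 without the 2 farthest. *Pvalb* and *Cacna1s* ran the opposite way, with r -0.77 (permutation p = 0.00175, adjusted 0.0131), rho -0.54 (permutation p = 0.0569, adjusted 0.171) and r -0.65 without the 2 farthest. Of the 8 pairs, *Casq1* with *Cacna1s* (rho 0.59, adjusted permutation p = 0.145) and *Sln* with *Pvalb* (rho 0.53, adjusted permutation p = 0.188) did not pass by rho either. The r of *Sln* with *Pvalb* fell from 0.71 to 0.36 without the 2 farthest. *Casq2* had r from -0.30 to 0.34 with the other 9 genes, and 0 of these 9 relations passed (lowest adjusted permutation p = 0.446). Without the 2 farthest mice its r was 0.65 with *Pln* (0.34 with them) and -0.40 with *Pvalb* (-0.12 with them). The part of depth and library preparation in these relations was not tested.

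Body weight was 43.6 ± 3.79 g (SD, n = 10) in *Npr1*+/- and 47.4 ± 4.69 g (SD, n = 6) in *Npr1*+/+ mice and was a term of the same model. The labels' difference in weight of -3.82 g had a two-sided exact permutation p of 0.0950. The release channel, the voltage sensor, both pumps and *Casq1* had the most negative slopes with weight, none of them past the adjusted threshold. The slope of *Ryr1* was -0.27 per g on the log2 scale (standard error 0.08, unadjusted p = 0.00213 in edgeR, adjusted p = 0.245), that of *Cacna1s* -0.12 (standard error 0.04), of *Atp2a1* -0.12 (standard error 0.04), of *Atp2a2* -0.12 (standard error 0.04) and of *Casq1* -0.06 (standard error 0.03). These 5 of 10 had an unadjusted p-value under 0.05, all lower with weight, where 12.3% of all genes tested had one in that direction and 4.74% in the other, and 0 of the 10 passed adjustment, as 0% of all genes did (2449 genes had an unadjusted p-value under 0.05 in edgeR, and DESeq2 and limma-voom called 0). *Srl* had a slope of -0.05, *Pvalb* of 0.06, and *Casq2*, *Sln* and *Pln* of 0.01 to 0.02. In the triad and release list 6 of 26 tested genes were lower with weight at an unadjusted p-value under 0.05 and 1 was higher, among them *Hrc*, a calcium-binding protein of the reticulum, with -0.15 per g, and *Speg*, a triad kinase, with -0.17. In the uptake list 7 of 20 were lower, among them *Slc8a3*, a sodium-calcium exchanger, with -0.09, and *Stim1*, the calcium sensor of the reticulum, with -0.08, and in the signalling list 6 of 19, among them *Mef2d* with -0.10. Markers of fiber type and of other cells had slopes of the same sign at an unadjusted p-value under 0.05 in 3 of 9 fast sarcomere genes (*Myh1* -0.23, *Myh2* -0.24 and *Myh4* -0.21 per g), 2 of 3 cardiac genes (*Myh6* -0.23 and *Tnnt2* -0.08), 2 of 5 endothelial genes (*Kdr* -0.13 and *Cdh5* -0.09), 1 of 4 regenerating genes (*Myh3* -0.25) and 1 of 5 smooth muscle genes (*Smtn* -0.06), in 0 of 7 slow sarcomere genes, and the adipocyte gene *Fabp4* had one of the opposite sign (0.07). Their part in the slopes of the 10 genes was not tested.

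These slopes depended on the cage term and on single mice. With cage left out of the model, *Ryr1* alone of these 5 had an unadjusted p-value under 0.05 (-0.14 per g, standard error 0.06, p = 0.0264 in edgeR), and the slopes of the other 4 were -0.05 (*Atp2a1*), -0.05 (*Cacna1s*), -0.03 (*Atp2a2*) and -0.02 (*Casq1*). Without *Npr1*+/- replicate 3 (40.1 g), *Ryr1*, *Cacna1s*, *Atp2a1* and *Atp2a2* passed adjustment as lower with weight and *Pvalb* as higher (adjusted p = 0.00459, 0.0148, 0.0147, 0.00429 and 0.0264 in edgeR), and 22.1% of the 14284 genes tested then passed, 13.7% lower and 8.44% higher. Of the 3 libraries of highest long-gene index, 2 came from the lightest mice, *Npr1*+/- replicate 7 (36.5 g) and replicate 5 (39.4 g). With these 3 left out the slope of *Ryr1* was -0.12 per g (standard error 0.05, unadjusted p = 0.0425 in edgeR), and with the index as a further covariate it was -0.11 (standard error 0.05, unadjusted p = 0.0761). In these 2 fits the slope was -0.06 and -0.05 for *Atp2a2* (unadjusted p = 0.0495 and 0.193 in edgeR), -0.07 and -0.06 for *Cacna1s* (0.100 and 0.127), -0.09 and -0.09 for *Atp2a1* (0.0309 and 0.0402) and -0.05 and -0.06 for *Casq1* (0.0784 and 0.0276).

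**Figure D5:**
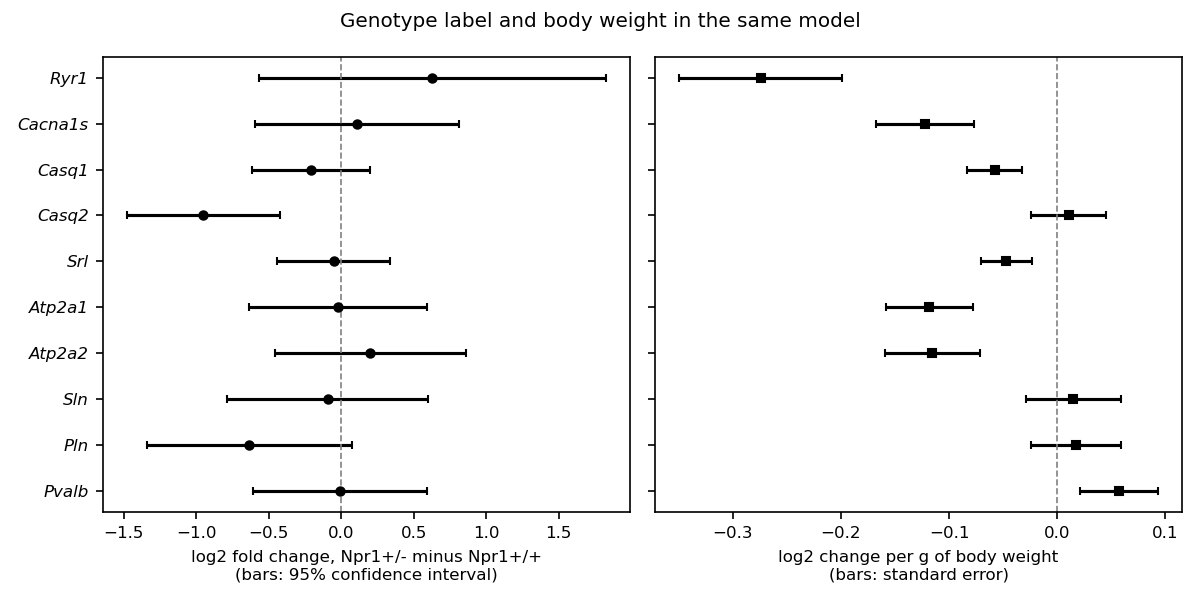
Left, log2 fold change of each gene by genotype label with its 95% confidence interval; right, log2 change per g of body weight with its standard error, both from the model with cage as a further term over 16 mice. The interval of *Casq2* (-1.48 to -0.43) is the only one of the 10 by genotype label that leaves out 0, and *Ryr1* has the steepest slope with weight (-0.27).

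Cage was the third term of the model. Across all genes 4 (0.0279%) passed adjustment and 7.36% had an unadjusted p-value under 0.05. None of the 10 genes passed, and 2 had an unadjusted p-value under 0.05 in edgeR, *Atp2a2* (0.0270) and *Ryr1* (0.0278). Without *Npr1*+/- replicate 3 both passed (adjusted p = 0.0171 and 0.0306 in edgeR), together with 6.08% of all genes tested.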

How the data were processed

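Skeletal muscle mRNA of 16 HFD-fed mice was sequenced in paired ends. Reads were aligned by the authors with STAR 2.7.2b (GRCm38), who counted fragments whose both ends aligned on GENCODE M24 genes with featureCounts (1.6.4 in the submitters' processing notes), and deposited these counts without normalization together with gene coordinates and lengths. The labels name a Tecan Universal Plus mRNA kit and the paper's methods TruSeq Stranded mRNA, and the strand setting of the counting is not given in the sources used here. A reference table of gene names gave symbols for 55144 of 55471 identifiers, and *Strit1* was found through RefSeq. Coordinates are those of the deposited table.

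From the counts, low genes were removed by filterByExpr, libraries were normalized by TMM, and tests were run in edgeR 4.0.16 in R 4.3.3 (glmQLFit with robust = TRUE and legacy = TRUE, glmQLFTest), with genotype label, cage and body weight as terms, as in the study's methods, and p-values were adjusted over all genes by the Benjamini-Hochberg method at 0.05. The fits were also run on simulated counts that held no cage, body weight or long-gene effect. That run does not show how the fits behave where such effects are present. Ratios were compared by exact permutation over mice and correlations by permutation with 100000 resamples, in Python 3.11.15 with SciPy 1.17.1. Alternatives were other terms, scalings, filters and tools (DESeq2 1.42.0, limma 3.58.1), each mouse left out, and, added after seeing the data, the long-gene index and fits without 3 libraries. Total counts were 15273472 to 59682677 per library, and floors of 3 counts cover counting error only. The genes named were the 10, *Npr1*, and of each list the gene with the smallest p-value and that with the highest level per length, together with the 3 most similar genes of each of the 10 and any pathway gene with an unadjusted p-value under 0.05 for the genotype label. A few genes that this rule names are not reported here. Genes named beside these were chosen after their values were seen. The 10 genes and the lists were chosen with earlier results of these data known. A shared replicate number does not mark a shared animal.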

Additional observations from a re-analysis of the deposited data

Results flagged for a closer look

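In 26 groups of 4 to 10 mice, a single mouse was set against the gap expected of the most extreme value, and 5 stood out by Dixon's criterion, where chance alone gives about 1 in 20. *Npr1*+/+ replicate 1 was far below the other *Npr1*+/+ mice in 3 genes, with log2 CPM values of 3.45 for *Atp2a2*, 7.05 for *Ryr1* and 7.93 for *Cacna1s*. *Srl* was far below the rest of its group in *Npr1*+/- replicate 9 (log2 CPM 9.82). *Srl* in *Npr1*+/+ replicate 3 (log2 CPM 10.61) stood out only against the narrow range of its group, with 1561 CPM against 1710 to 1757 CPM in the other 5 mice.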

How the results depend on the processing

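None of the 10 genes was called for the genotype label under any of 14 other settings or with any mouse left out, and *Casq2* stayed lower, from -1.01 to -0.80 and from -1.07 to -0.80 on the log2 scale. The cause of each change below was not tested. The number of genes called for the genotype label was 6 with DESeq2, 8 without a filter, 1 without the 3 libraries of highest long-gene index and 0 to 3 with a mouse left out (3 without *Npr1*+/+ replicate 3, 2 without *Npr1*+/- replicate 6). For body weight it was 0 to 3158 with a mouse left out, and for cage 23 without a filter, 9 with the index as a covariate, 2 without the 3 libraries and 0 to 869 with a mouse left out. Same-numbered mice had a mean r of 0.078 over 6 pairs (0.033 to 0.17), against -0.0082 over 54 different-numbered pairs (-0.41 to 0.51). Whether the numbers pair the mice was not tested. With the replicate block in place of cage, 2 genes were called for the label (1294 at an unadjusted p-value under 0.05) and 1 for weight, and with the block and the index 1 and 1. Replicate numbers 7 to 10 occur only among *Npr1*+/- mice. Each of these mice has a term of its own in the block fits, so it adds nothing to the label or weight estimates. With the block, the log2 fold change by label was 1.45 for *Ryr1* (unadjusted p = 0.0188 in edgeR, adjusted p = 0.521) and 0.70 for *Cacna1s* (unadjusted p = 0.00752, adjusted p = 0.520), and none of the 5 genes with an unadjusted p-value under 0.05 for weight kept one (*Ryr1* -0.048 and *Cacna1s* -0.0017 per g).

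The *Casq2* to *Casq1* difference was -1.33 as medians, -0.92 without the 3 libraries (adjusted exact permutation p = 0.0804) and -1.25 to -0.95 with a mouse left out. That of *Atp2a2* to *Atp2a1* was -0.23 as medians, -0.087 without the 3 libraries and -0.057 to 0.12 with a mouse left out. Log2 fold changes by label that turned direction were as follows. With the label alone, *Casq1* was 0.054, *Atp2a1* 0.40 and *Srl* 0.067. With cage only, *Casq1* was 0.0087, *Atp2a1* 0.39 and *Srl* 0.13. With weight only, *Atp2a1* was 0.18 and *Pvalb* 0.046. With the replicate block, *Casq1* was 0.086, *Atp2a1* 0.53 and *Srl* 0.072, and with the block and the index *Casq1* was 0.26 and *Atp2a1* 0.65. *Pvalb* was 0.015 with RLE factors and with DESeq2 and 0.012 without a filter. With the index as a covariate, *Sln* was 0.041, *Pvalb* 0.13 and *Cacna1s* -0.038. Without the 3 libraries, *Atp2a2* was -0.21, *Pvalb* 0.26 and *Cacna1s* -0.25. With a mouse left out, *Atp2a1* was -0.16 to 0.19, *Atp2a2* -0.13 to 0.33, *Sln* -0.29 to 0.076, *Pvalb* -0.16 to 0.13, *Cacna1s* -0.063 to 0.47 and *Srl* -0.11 to 0.065.

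Slopes per g that turned direction were those of *Casq2* (-0.012 with the index, -0.0030 without the 3 libraries, -0.020 to 0.028 with a mouse left out), *Atp2a2* (0.013 with the block, 0.012 with the block and the index), *Sln* (-0.0367 with the block, -0.0369 with the block and the index, -0.035 with the index alone, -0.0043 without the 3 libraries, -0.012 to 0.050 with a mouse left out), *Pln* (-0.014 without cage, -0.028 to 0.047 with a mouse left out) and *Pvalb* (-0.0044 with the block, -0.0028 with the block and the index). The r of *Atp2a2* with the slow sarcomere index was -0.028 without the 3 libraries. *Pln* had under 10 counts in some mice and gave no value under a filter of 10 counts in every mouse. Counts of 7 to 59 limit *Pln*, and 17 to 107 limit *Sln*. Each mouse is 1 library, so spread between mice and between preparations cannot be told apart.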
